A study of Zea mays with 6 samples.

Results

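The genes td1, fea2, fea3, ct2 and fea4, which control the size of the ear meristem in maize, were followed across 3 genotypes. They are 5 of the 45578 genes in the deposited table of read counts, and each passed the low-count filter that left 22947 tested genes. The genes were chosen by identifier: Zm00001d014793 for td1, Zm00001d051012 for fea2, Zm00001d040130 for fea3, Zm00001d027886 for ct2 and Zm00001d037317 for fea4. These names come with the selection. The deposited table holds identifiers without names. The RefSeq gene table used here (assembly Zm-B73-REFERENCE-NAM-5.0) lists the names of the 5 genes and 0 of the 43789 identifiers of this kind, so the match of name to identifier was not checked against it. Positions on the genome, transcript lengths and sequences of the 5 genes were not used here.

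An ear is built by an inflorescence meristem, a dome of dividing cells at its tip whose stem cells must be kept at a steady number. In the CLAVATA pathway, small secreted CLE peptides are sensed by leucine-rich repeat receptors at the cell surface, and the signal restrains the stem cell-promoting factor WUSCHEL. When the pathway is weakened the meristem enlarges, and in maize the ear tip becomes broad and fasciated, often with extra or irregular kernel rows. The gene td1 (thick tassel dwarf1) encodes the maize counterpart of the receptor kinase CLAVATA1. The gene fea2 (fasciated ear2) encodes the counterpart of CLAVATA2, a receptor-like protein with no kinase domain of its own. The gene fea3 encodes another leucine-rich repeat receptor-like protein, known for signalling from differentiating cells below the stem cells. The gene ct2 (compact plant2) encodes the alpha subunit of a heterotrimeric G protein that acts with FEA2. The gene fea4 encodes a bZIP transcription factor related to PERIANTHIA of Arabidopsis and is known for acting in a route parallel to the CLAVATA receptors.

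RNA was sequenced from developing ears up to 0.5 cm long. One genotype is a single line labelled RHW1 overexpression (OE#1), another is a CRISPR-edited line labelled RHW1 knockout, and the third is wild type; each has 2 libraries. The study's title concerns husk leaf width and a pathway of RHW1 and ZCN4. The sources used here do not give the inbred background, the promoter that drives RHW1 in the overexpression line, the edited allele, or whether a genotype's 2 libraries stem from different plants. P-values therefore measure the spread between these libraries, which may be technical. The level of RHW1 itself was not analysed here, so the genotypes are given as labelled. Of 4 meristem and green-leaf marker symbols looked up to check the tissue label, 0 could be paired with an identifier; the tissue is given as labelled.

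Total counts were 21094445 to 23999698 reads in a library, and the 5 genes together took 4663 to 5578 of them. Levels are given as CPM, read counts per 1000000 reads after scaling between libraries by TMM factors of 0.991 to 1.01. Over all tested genes, the 2 libraries of a genotype differed by more than counting error (mean chi-square of 2.24 to 2.62 a gene, against 1 from counting), so each was kept as its own library. Single-gene counts ran from 277 reads of fea4 in an overexpression library to 1664 reads of fea3 in the other overexpression library. Differences were tested with edgeR's quasi-likelihood test over all 22947 genes and called at a Benjamini-Hochberg adjusted p below 0.05. The 95% intervals of fold changes are for a single gene and are not adjusted for the number of genes. CPM is not divided by gene length, so levels are compared between genotypes and not between genes.

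**Figure D1:**
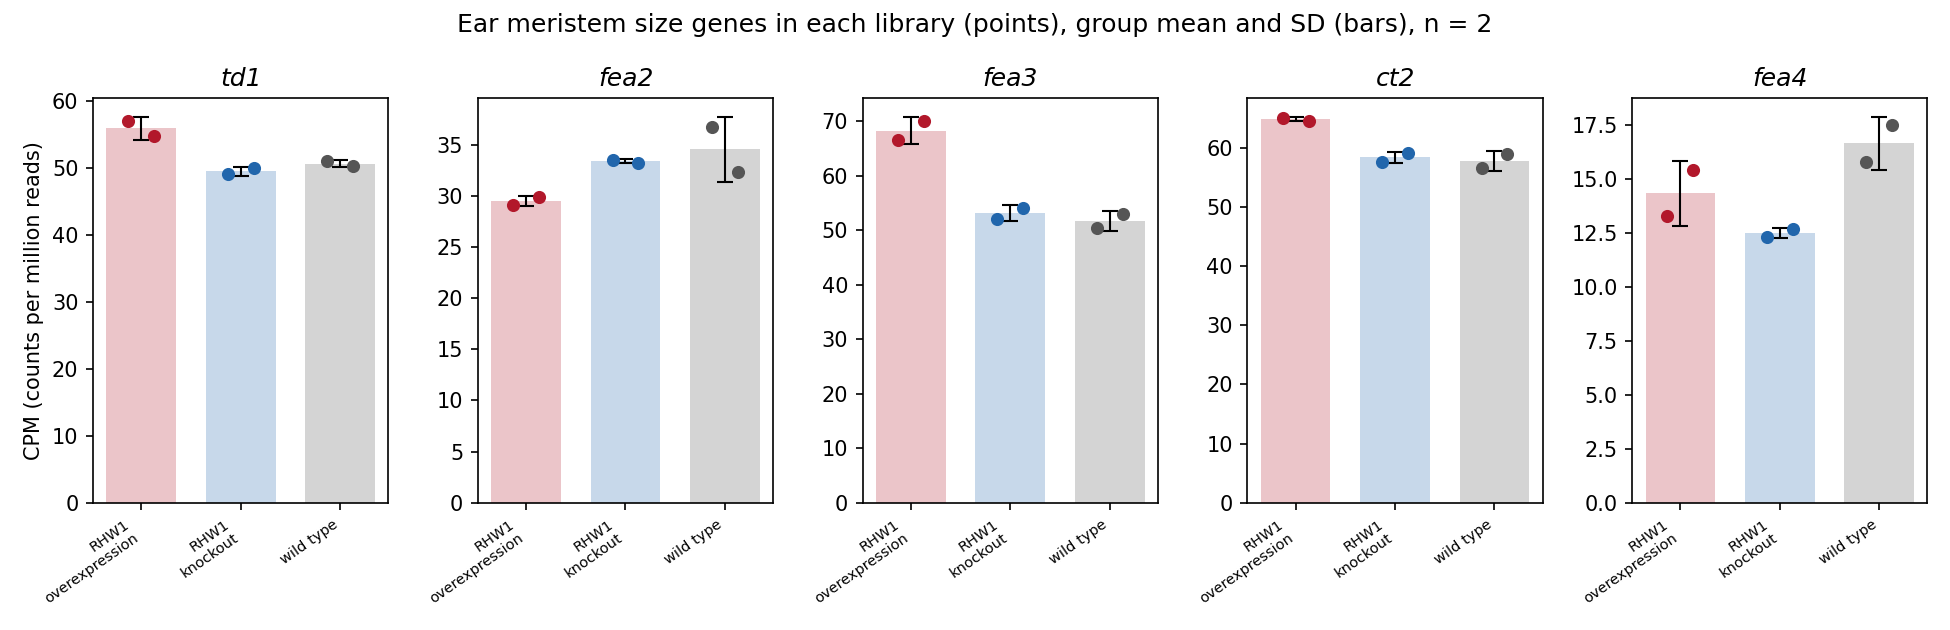
Level of each of the 5 genes in CPM (vertical axis, from 0) in overexpression, knockout and wild-type ears. Points are libraries, bars are group means and whiskers are SD (n = 2); fea3 stands at 66.5 and 70.0 CPM in overexpression, above the other 4 libraries, and fea4 is lowest in the knockout at 12.3 and 12.6 CPM.

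The question of the first comparison was which of these genes differ in the overexpression line from wild type. Of the 5 genes, fea3 and ct2 rose, fea2 fell, and td1 and fea4 did not pass the test. Over all tested genes, 29.2% passed in this comparison, 15.3% higher and 13.9% lower. The median log2 fold change of the 5 genes was 0.14, against -0.0050 over all tested genes, and the median size of the change, without its sign, was 0.21 for the 5 genes and 0.17 over all tested genes. The overexpression and wild-type libraries did not overlap in CPM for any of the 5 genes, nor did they for 63.2% of all tested genes. In whole ears, fewer cells that express a gene and less RNA per cell cannot be told apart.

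Among the receptors, fea3 moved most. Its level was 66.5 and 70.0 CPM in the overexpression libraries, against 50.4 and 53.0 CPM in wild type. Both overexpression libraries lay above every other library. The means were 68.2 ± 2.48 CPM in overexpression and 51.7 ± 1.82 CPM in wild type (SD, n = 2 each). The rise was 1.32-fold (95% interval 1.22 to 1.43), or 0.40 on the log2 scale with an SE of 0.057 (edgeR adjusted p = 8.19e-07). It passed in each of the 14 alternative settings, with adjusted p from 2.35e-10 to 0.000199, and 81.3% of all tested genes changed less between these genotypes.

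The receptor-like gene fea2 moved the other way. Its level was 29.1 and 29.9 CPM in overexpression, against 36.8 and 32.3 CPM in wild type. The overexpression libraries were close together and below both wild-type libraries, which were further apart from each other. The fall was to 0.854 of wild type (95% interval 0.765 to 0.953), or -0.23 on the log2 scale with an SE of 0.079 (edgeR adjusted p = 0.0256). The 2 wild-type libraries differed by a log2 ratio of 0.19, which is 2.56 times the counting error; the other 14 pairs of replicate libraries of these genes differed by 0.187 to 1.87 times theirs. Without wild-type replicate 1, the library with more fea2, the log2 change was -0.13 and did not pass (adjusted p = 0.363). The call was also lost without overexpression replicate 1 (adjusted p = 0.113) or replicate 2 (adjusted p = 0.0617) and in DESeq2 (adjusted p = 0.0999), within a range of 0.0108 to 0.363 over 14 alternatives.

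The receptor kinase gene td1 had 57.1 and 54.8 CPM in overexpression, against 51.0 and 50.3 CPM in wild type. Its means were 55.9 ± 1.68 CPM in overexpression and 50.7 ± 0.485 CPM in wild type (SD, n = 2 each). The overexpression libraries lay above those of wild type, but the log2 fold change of 0.14 (SE 0.059) did not pass (edgeR adjusted p = 0.0684). The interval for the fold ran from 1.02 to 1.20. It missed the threshold in all 14 alternative settings too, with adjusted p from 0.0652 to 0.305.

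The signalling gene ct2 had 65.1 and 64.6 CPM in overexpression, against 56.6 and 58.9 CPM in wild type. The overexpression libraries were nearly equal and both were above wild type. The rise was 1.12-fold (95% interval 1.04 to 1.21), or 0.17 on the log2 scale with an SE of 0.055 (edgeR adjusted p = 0.0199). Leaving out wild-type replicate 1 ended the call (adjusted p = 0.152), as did leaving out overexpression replicate 1 (adjusted p = 0.0852) or replicate 2 (adjusted p = 0.0708) and using DESeq2 (adjusted p = 0.0816), within a range of 0.0191 to 0.152 over 14 alternatives. Such a rise was smaller than the change of 51.8% of all tested genes.

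The transcription factor gene fea4 had 13.3 and 15.4 CPM in overexpression, against 15.8 and 17.5 CPM in wild type. The higher overexpression library came close to the lower wild-type one. The log2 fold change of -0.21 (SE 0.12) did not pass (edgeR adjusted p = 0.177), and the interval for the fold ran from 0.734 to 1.02. The log2 value was -0.11 without overexpression replicate 1, -0.33 without overexpression replicate 2 and -0.13 without wild-type replicate 2, and none of these passed. With 277 to 396 reads in these libraries, fea4 had the fewest reads of the 5 genes and the widest interval.

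**Figure D2:**
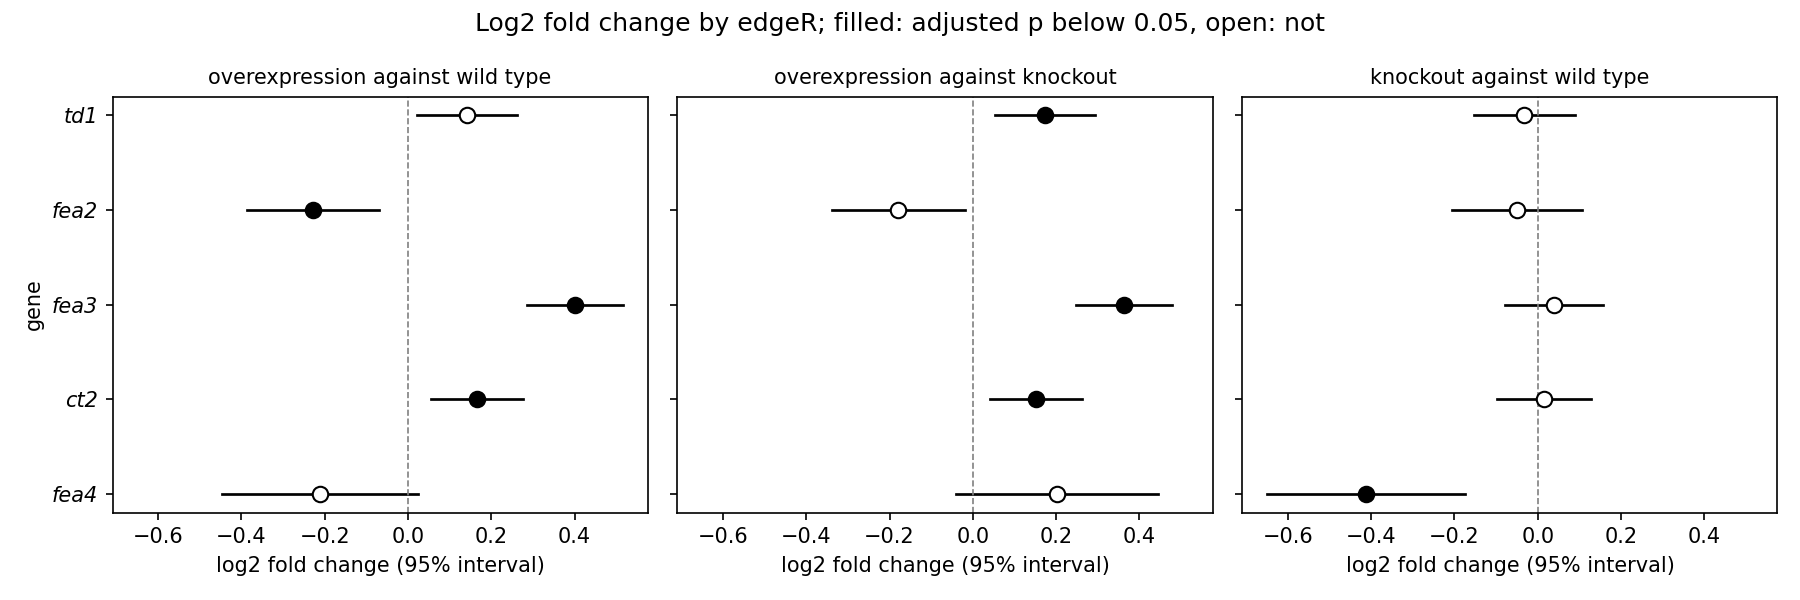
Log2 fold change (horizontal axis) of each gene in the 3 comparisons, as points with 95% intervals; filled points passed at an adjusted p below 0.05 and open points did not. In overexpression fea3 (0.40 against wild type and 0.36 against knockout) lies to the right and fea2 (-0.23 and -0.18) to the left, and in the knockout fea4 (-0.41) stands away from the other 4 genes.

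The next comparison set the overexpression line directly against the knockout line. Here fea3, td1 and ct2 were higher in overexpression by the test, and fea2 and fea4 did not pass. Of all tested genes 26.7% passed, 14.1% higher and 12.6% lower. The median log2 difference of the 5 genes was 0.17, against -0.0032 over all tested genes. The 2 groups did not overlap in CPM for any of the 5 genes, nor for 61.1% of all tested genes. The overexpression libraries also serve in the comparison with wild type, so the results share those libraries and are not separate evidence.

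For fea3, the 66.5 and 70.0 CPM of overexpression stood against 52.1 and 54.1 CPM in the knockout. The difference was 1.29-fold (95% interval 1.19 to 1.39), or 0.36 on the log2 scale with an SE of 0.057 (edgeR adjusted p = 5.41e-06). It passed in each of the 14 alternatives, with adjusted p from 1.2e-08 to 0.000766. For td1, the 57.1 and 54.8 CPM of overexpression stood against 49.1 and 50.0 CPM in the knockout, 1.13-fold higher (95% interval 1.04 to 1.23; adjusted p = 0.0257, edgeR). For ct2, the 65.1 and 64.6 CPM of overexpression stood against 57.7 and 59.1 CPM in the knockout, 1.11-fold higher (95% interval 1.03 to 1.20; adjusted p = 0.0368, edgeR).

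Those smaller rises of td1 and ct2 did not pass in every setting. For td1 the call was lost without knockout replicate 1 (adjusted p = 0.127) or replicate 2 (adjusted p = 0.0644), without overexpression replicate 1 (adjusted p = 0.181) and in DESeq2 (adjusted p = 0.102), within a range of 0.0245 to 0.181 over 14 alternatives. For ct2 it was lost without knockout replicate 1 or 2 (adjusted p = 0.170 and 0.0750), without overexpression replicate 1 or 2 (adjusted p = 0.136 and 0.111) and in DESeq2 (adjusted p = 0.133), within a range of 0.0357 to 0.170. The gene fea2 had 29.1 and 29.9 CPM in overexpression, against 33.5 and 33.2 CPM in the knockout. Both overexpression libraries were lower, and the log2 fold change of -0.18 (SE 0.079) did not pass (edgeR adjusted p = 0.0905).

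The last comparison set the knockout line against wild type. The only one of the 5 genes that passed was fea4, which fell; over all tested genes 8.52% passed, 4.04% higher and 4.48% lower. The median log2 fold change of the 5 genes was -0.032, against 0.00093 over all tested genes, and the median size of the change, without its sign, was 0.039 for the 5 genes and 0.11 over all tested genes. The knockout and wild-type libraries did not overlap for fea4 and td1, as for 49.2% of all tested genes.

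The level of fea4 was 12.3 and 12.6 CPM in the knockout, against 15.8 and 17.5 CPM in wild type. The knockout libraries were nearly equal and both lay below the lower wild-type library. In reads these were 296 and 282 in the knockout, against 365 and 396 in wild type. The means were 12.5 ± 0.230 CPM in the knockout and 16.6 ± 1.21 CPM in wild type (SD, n = 2 each). The fall was to 0.751 of wild type (95% interval 0.637 to 0.885), or -0.41 on the log2 scale with an SE of 0.12 (edgeR adjusted p = 0.0204), and 89.7% of all tested genes changed less. Leaving out wild-type replicate 2 ended the call (adjusted p = 0.201), as did leaving out knockout replicate 1 (adjusted p = 0.120) or replicate 2 (adjusted p = 0.0718) and using DESeq2 (adjusted p = 0.0761), within a range of 0.0138 to 0.201 over 14 alternatives. The log2 change itself stayed between -0.48 and -0.34.

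The fall of fea4 was not shown to be particular to the knockout. Its overexpression level lay between those of the other genotypes, and the direct difference of overexpression from knockout, at 0.20 on the log2 scale (SE 0.12), did not pass (edgeR adjusted p = 0.223). The interval of that difference ran from 0.973-fold to 1.36-fold. The log2 difference was 0.30 without overexpression replicate 1 and 0.088 without overexpression replicate 2, and neither passed.

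The 3 receptor genes and ct2 had knockout levels near those of wild type. The log2 fold change was -0.032 for td1 (adjusted p = 0.821), -0.049 for fea2 (adjusted p = 0.784), 0.039 for fea3 (adjusted p = 0.774) and 0.014 for ct2 (adjusted p = 0.925, all edgeR). The intervals bound what these libraries allow: 0.899-fold to 1.06-fold for td1, 0.867-fold to 1.08-fold for fea2, 0.946-fold to 1.12-fold for fea3 and 0.935-fold to 1.09-fold for ct2. For fea2 the knockout libraries lay between the 2 wild-type libraries, at 33.5 and 33.2 CPM, against 36.8 and 32.3 CPM in wild type. The sign of the small difference changed with 1 library left out for fea2 (0.049 without wild-type replicate 1) and ct2 (-0.013 without wild-type replicate 1 and -0.0023 without knockout replicate 2), so no direction is given for them.

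**Figure D3:**
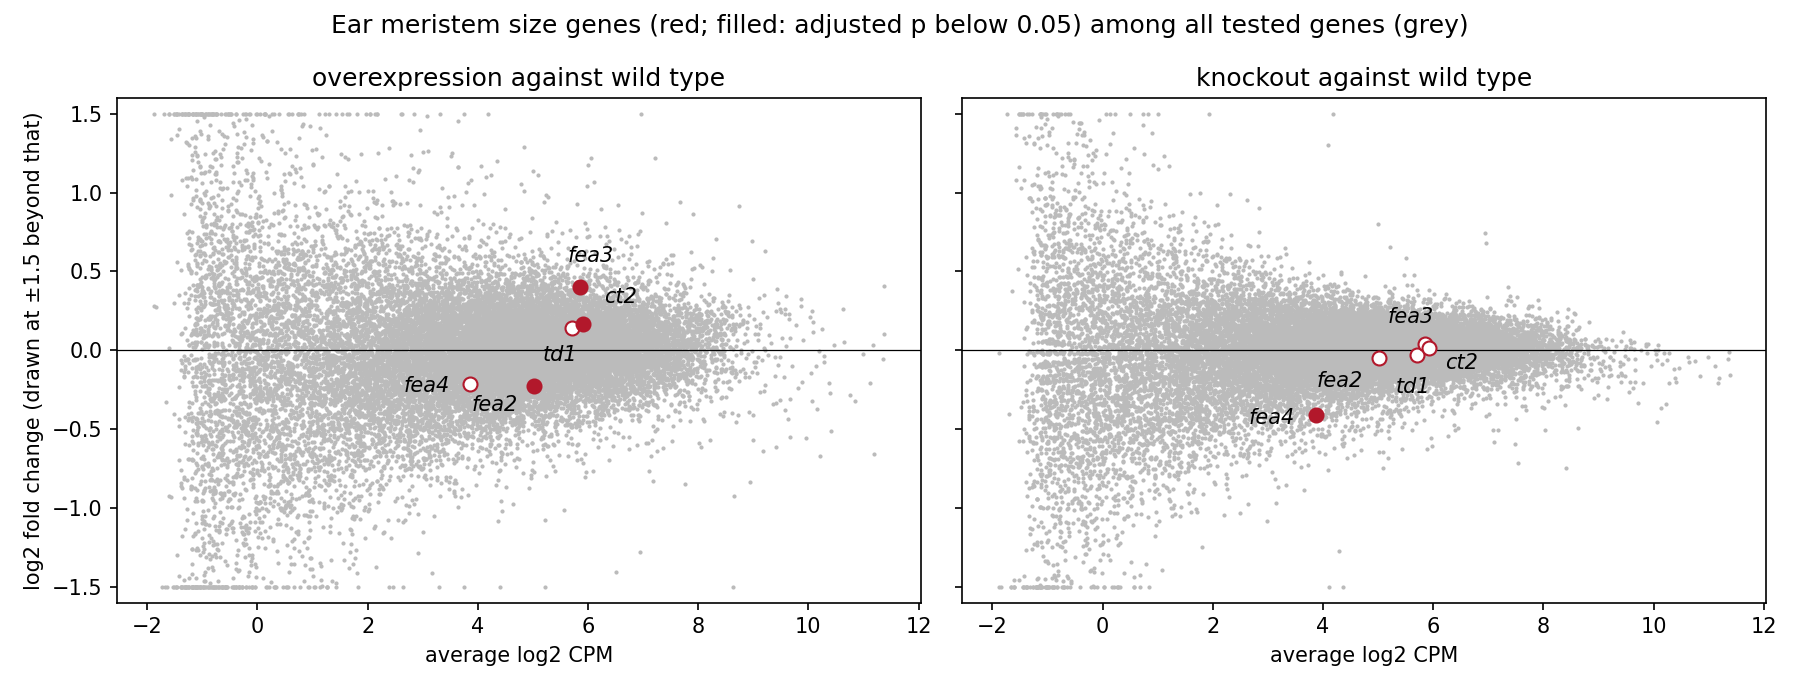
Log2 fold change (vertical axis, values beyond ±1.5 drawn at that limit) against average log2 CPM (horizontal axis) of all 22947 tested genes in grey and the 5 genes in red, filled where the adjusted p was below 0.05. The left panel sets overexpression and the right panel knockout against wild type; fea3 lies at 0.40 on the left, where its change exceeds that of 81.3% of the genes, and fea4 at -0.41 on the right, where its change exceeds that of 89.7%.

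By mean level, the order for fea3 was overexpression at 68.2 CPM, knockout at 53.1 CPM and wild type at 51.7 CPM, and ct2 had the same order, with overexpression at 64.8 CPM, knockout at 58.4 CPM and wild type at 57.8 CPM. In both, overexpression passed against each of the other genotypes, while knockout and wild type did not differ by the test. For td1 overexpression was also highest at 55.9 CPM, with knockout lowest at 49.6 CPM and wild type at 50.7 CPM; only overexpression against knockout passed. For fea2 the order was reversed, with overexpression lowest at 29.5 CPM, knockout at 33.4 CPM and wild type highest at 34.5 CPM; only overexpression against wild type passed. For fea4 overexpression stood between the others at 14.3 CPM, with knockout lowest at 12.5 CPM and wild type highest at 16.6 CPM; only knockout against wild type passed. A level between the others that passed against neither, as for fea4 in overexpression, is not shown to equal either.

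Ratios of 2 genes within a library need no scaling between libraries. The ratio of fea3 to fea2 restates the levels above without that scaling and does not show which of the genes moved. Each ratio also depends on the lengths of both genes, so only its change between genotypes is compared, without a test. There were 2.28 and 2.34 reads of fea3 for each read of fea2 in overexpression, 1.55 and 1.63 in the knockout, and 1.37 and 1.64 in wild type. Both overexpression libraries were above the other 4, and the knockout values lay within the wild-type range. The mean ratio in overexpression was 1.54 times that of wild type, and the mean ratio in the knockout was 1.06 times it. Both depend on the lower wild-type value of 1.37, which came from replicate 1, the wild-type library with more fea2.

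The reads of td1 and ct2 for each read of fea2 were also higher in overexpression. The receptor kinase gene td1 had 1.96 and 1.83 reads for each fea2 read in overexpression, 1.46 and 1.51 in the knockout, and 1.39 and 1.56 in wild type. The G protein gene ct2 had 2.24 and 2.16 in overexpression, 1.72 and 1.78 in the knockout, and 1.54 and 1.82 in wild type. In both ratios the overexpression libraries were again above the other 4. Since fea2 is the denominator of all 3 ratios, they are not independent. Among the 10 pairs of the genes followed here, knockout and wild type were apart in 7, all but these 3. Overexpression lay outside the other 4 libraries in 6 of the 10 pairs, these 3 among them. The same shares over pairs of other genes were not computed.

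The ratio of td1 to ct2 differed less between genotypes. The reads of td1 for each read of ct2 were 0.878 and 0.848 in overexpression, 0.851 and 0.847 in the knockout, and 0.901 and 0.854 in wild type, so the overexpression values lay within the range of the other libraries. Both knockout values lay below both wild-type values. The reads of fea4 for each read of ct2 were 0.204 and 0.238 in overexpression, 0.2136 and 0.2141 in the knockout, and 0.278 and 0.297 in wild type. Here both lines were below wild type and overlapped with each other. The gene fea4 had 0.456 and 0.515 reads for each read of fea2 in overexpression, 0.367 and 0.381 in the knockout, and 0.429 and 0.541 in wild type. On that scale overexpression lay within the wild-type range, and only the knockout was below it.

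**Figure D4:**
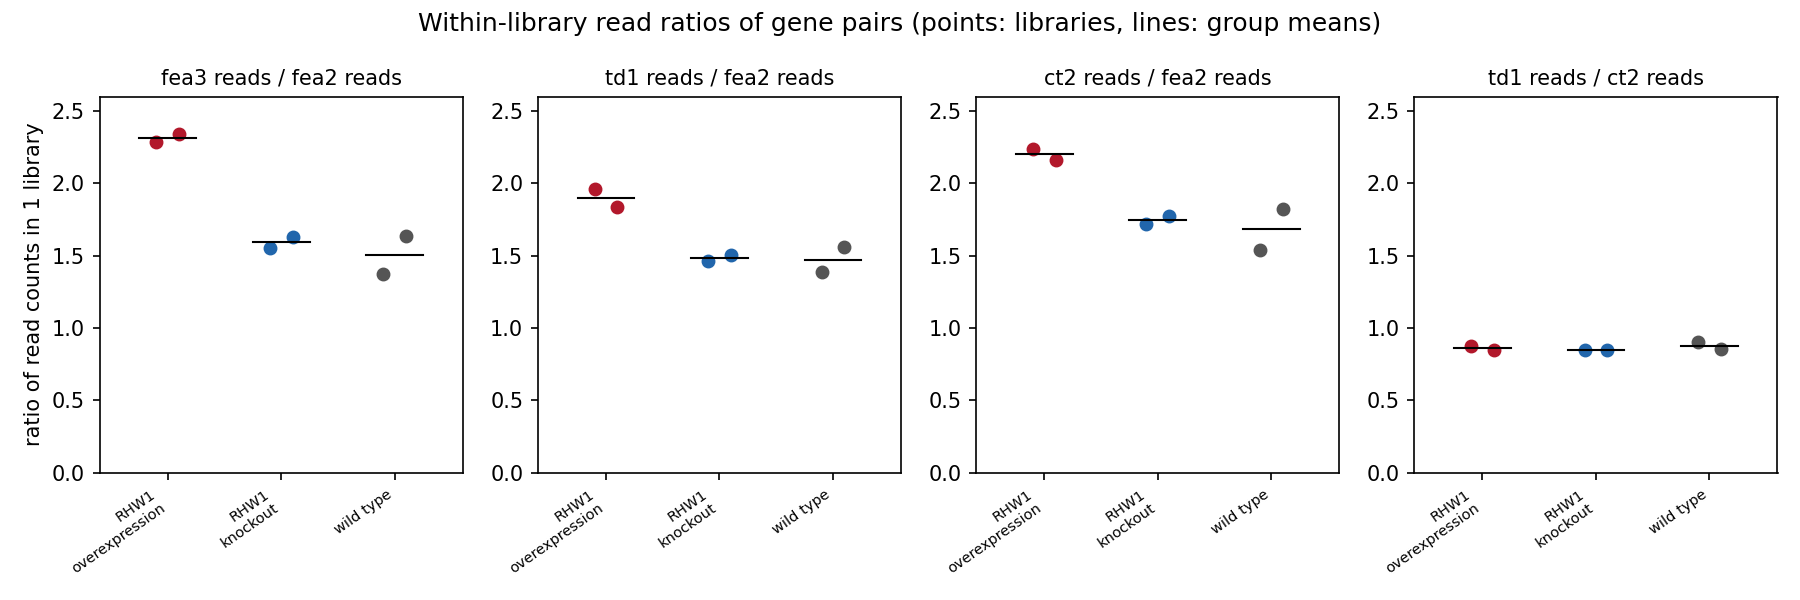
Read count of 1 gene divided by that of another in the same library (vertical axis, from 0) for overexpression, knockout and wild type; points are libraries and lines are group means. The ratio of fea3 to fea2 is 2.28 and 2.34 in overexpression and at most 1.64 elsewhere, while the ratio of td1 to ct2 lies between 0.847 and 0.901 in all 6 libraries.

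For each of the 5 genes, the tested gene with the most similar pattern was found as the smallest root mean square difference of log2 CPM, centred on each gene's mean, over the 6 libraries and 19672 candidate genes. These genes have no names in the table. For fea3 it was Zm00001d028994, at a difference of 0.022 beside a spread of 0.18 of fea3 itself, with 40.1 and 41.3 CPM in overexpression, 31.7 and 32.6 CPM in the knockout, and 29.6 and 32.5 CPM in wild type. For fea4 it was Zm00001d051562, at 0.052, with 72 and 86 reads in overexpression, 74 and 72 in the knockout, and 96 and 100 in wild type. Zm00001d051562 did not pass against wild type in overexpression (edgeR adjusted p = 0.370) or in the knockout (edgeR adjusted p = 0.240). For td1 it was Zm00001d036013 at 0.0087, for fea2 Zm00001d018452 at 0.011 and for ct2 Zm00001d012878 at 0.0064. Within 0.1 lay 5613 genes for td1, 3057 for fea2, 1285 for fea3, 5881 for ct2 and 135 for fea4. The spread of td1 itself and of ct2 itself was 0.078, below that limit, and that of fea2 was 0.11, just above it. A gene with no change at all would lie within 0.1 of td1 and ct2, so their numbers do not count shared patterns.

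**Figure D5:**
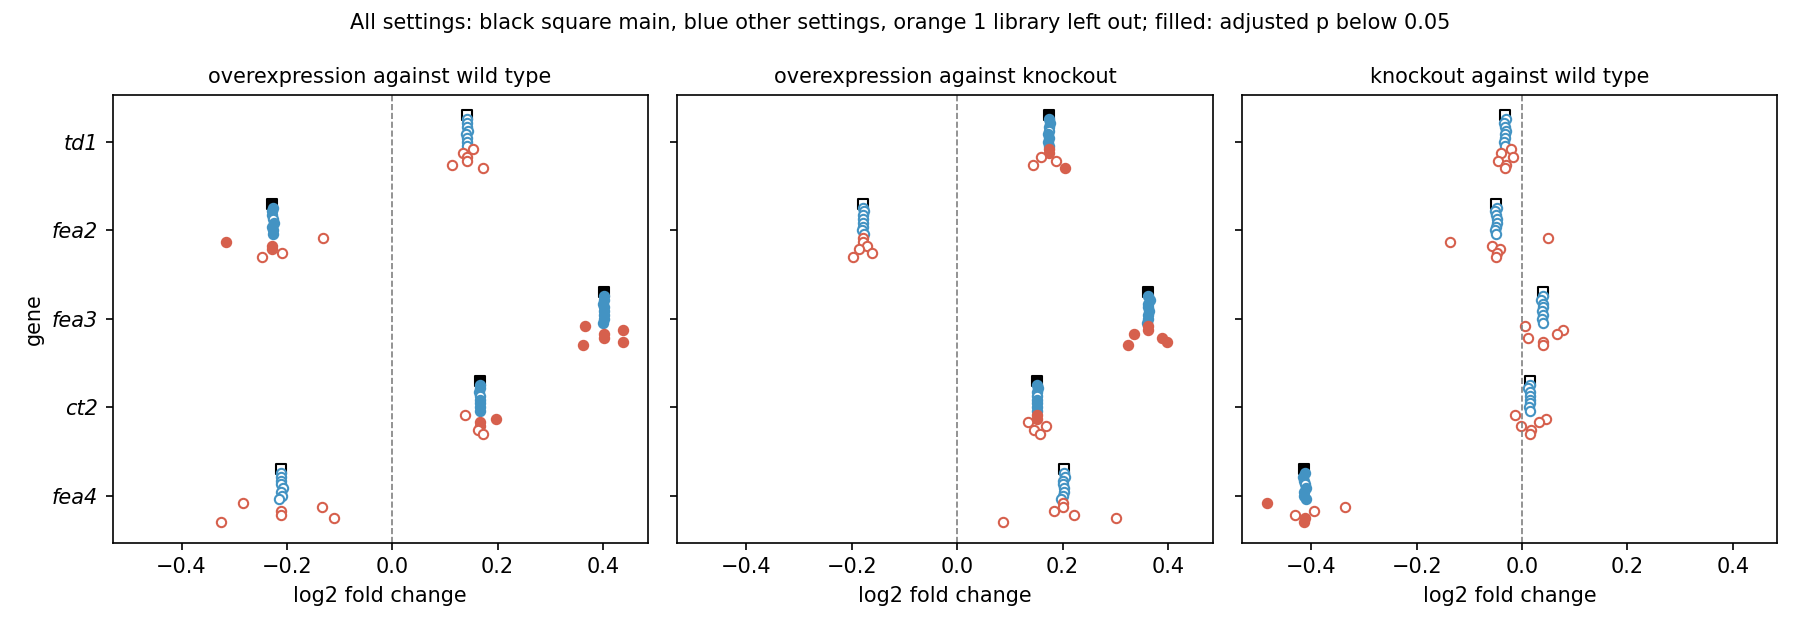
Log2 fold change (horizontal axis) of each gene under every setting: the reported fit as black squares, other tools, filters and scalings in blue, and fits with 1 library left out in orange, filled where the adjusted p was below 0.05. All points of fea3 in both overexpression comparisons are filled, whereas fea2, ct2, td1 and fea4 have open points in the comparisons in which they passed.

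Of the 20 other symbols looked up for this pathway, among them CLE peptides, WUSCHEL genes and G protein subunits, 5 were in the reference table and 0 could be paired with an identifier of the count table. Their levels were not analysed here.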

How the data were processed

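The authors deposited raw read counts per gene for 6 libraries, not normalized, as whole numbers with unequal totals. Per the labels' protocols, DNase-treated total RNA went into NEBNext Ultra II libraries. Per the submitters' processing notes, the tools, named with no roles, were HISAT2 2.1.0, StringTie, HTSeq, Trimmomatic 0.35 and edgeR 3.32.1. Genome build, annotation, counting options and use of strand were not given in the sources used here, so reads of overlapping or antisense genes, or of near-identical copies, cannot be told apart.

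Genes were kept with filterByExpr (minimum count 10) and tested with edgeR 4.0.16 (R 4.3.3): TMM, 1 quasi-likelihood fit of all 6 libraries with 3 group means (3 residual degrees of freedom, prior 33.2, so the spread used for a gene rests mostly on all genes), Benjamini-Hochberg adjustment over all tested genes. SE is the log2 fold change divided by the square root of F. The 5 genes and all lists were chosen with earlier results of these data known. The text names the 5 genes and, for each, the gene of nearest pattern (average log2 CPM of at least 1, prior count 2). Alternatives were RLE scaling, 2 other filters, DESeq2 1.42.0, limma-voom (limma 3.58.1), robust dispersions, fits with only 2 groups, a replicate block, and each library left out. Columns left unused numbered 0. Levels per length were not computed, as no transcript length was at hand. Counting errors assume that reads are independent.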

Additional observations from a re-analysis of the deposited data

How the results depend on the processing

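Of 210 log2 fold changes of the 5 genes under 14 alternatives, 186 kept their direction and their side of the threshold, 21 lost their call and 3 changed sign. Many of the 186 were not called in the reported fit and had no call to lose. The calls of fea3 held in all 14 alternatives, while each call of another gene held in only 9 or 10 of the 14. The changed signs were in the knockout comparison and close to 0: ct2 at -0.013 without wild-type replicate 1 and -0.0023 without knockout replicate 2, and fea2 at 0.049 without wild-type replicate 1. DESeq2 called 0 of the 5 genes in the knockout against wild type, 1 in overexpression against wild type and 1 in overexpression against knockout. In the same order edgeR called 1, 3 and 3. At an unadjusted p below 0.05, 1, 3 and 3 of them passed in DESeq2 and 1, 4 and 4 in edgeR. The share of all tested genes below that unadjusted threshold was not computed. In all, DESeq2 called 986, 4455 and 3946 genes, where edgeR called 1954, 6698 and 6120. Over all genes to which DESeq2 gave an adjusted p, which were fewer than those tested, its share called was lower too, at 6.80%, 21.0% and 18.6%. By edgeR it was 8.52%, 29.2% and 26.7% of all tested genes, so the shares have unlike bases. The DESeq2 log2 fold changes were -0.41 for fea4 in the knockout, 0.17 for ct2 and -0.23 for fea2 in overexpression against wild type, and 0.15 for ct2 and 0.17 for td1 in overexpression against knockout, so the sizes moved little. With 1 library left out, 0 to 1, 1 to 3 and 1 to 3 genes were called in these comparisons, beside 3.89% to 9.03%, 21.0% to 29.5% and 19.2% to 26.2% of all tested genes; such fits rest on fewer libraries and assume that the lone library varies like the others. The log2 fold change then ran from -0.48 to -0.34 for fea4, -0.14 to 0.049 for fea2 and -0.013 to 0.045 for ct2 in the knockout. In overexpression against wild type it ran from -0.32 to -0.13 for fea2, 0.14 to 0.20 for ct2 and -0.33 to -0.11 for fea4, and in overexpression against knockout from 0.14 to 0.21 for td1, 0.088 to 0.30 for fea4 and 0.13 to 0.17 for ct2. No pairing of libraries by replicate number was seen, as deviations from group means had correlations of -0.012, -0.0086 and 0.0016 across genotypes. All tested genes counted alike in these correlations, and counting error in genes with few reads draws them to 0, so a weak pairing could be missed. Adding a replicate block left the counts of called genes among the 5 at 1, 3 and 3, beside 7.60%, 28.2% and 25.5% of all tested genes. With 2 libraries a genotype, the intervals are wide beside the small changes of td1, fea2 and ct2, and of fea3 in the knockout. The same holds for fea4, with at most 396 reads in a library. For fea3 in overexpression against wild type the interval was narrower beside the change, at 1.22 to 1.43 for a 1.32-fold rise.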
